A study of Mus musculus with 17 samples.

Results

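The 8 genes described here belong to the response of skeletal muscle to the loss of its nerve. They are Runx1, Ankrd1, Ampd3, Igfn1 and Arpp21, which are known to rise in denervated muscle, and Hdac4, Hdac9 and Dach2, which belong to the deacetylase pathway that links nerve activity to gene expression. They were taken by gene symbol from the 36172 gene rows of the deposited count table, and each had 1 row. RNA was sequenced from the extensor digitorum longus (EDL), a fast muscle of the lower leg, of 17 mice, 1 library per animal. The labels name a Hand2 vector for 7 animals and an Empty Vector for 10, and the study's title concerns sarcopenia, the muscle loss of old age, and sympathetic neurons kept by Hand2. The Hand2 animals were 4 females, 3 of them aged 22 months and 1 aged 23 months, and 3 males, 1 aged 22 months and 2 aged 23 months. The Empty Vector animals were 5 females, 2 aged 22 months and 3 aged 23 months, and 5 males, 1 aged 22 months and 4 aged 23 months. Strain, the promoter that drives the vector, and when and where it was given are not stated in the labels, and none of the animals was labelled as denervated or as young.

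Motor nerves hold many muscle genes at a low level through electrical activity, and these genes are released when activity stops. In denervated mouse muscle the class IIa deacetylase HDAC4 accumulates in the fibre and represses Dach2, a co-repressor of the myogenic factor gene Myog, and myogenin then activates genes of the synapse and of atrophy. The members outside that pathway are used as readouts of denervation and also of mechanical or metabolic stress, so their level is not a measure of innervation alone.

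Libraries held 19181208 to 30942818 estimated counts with a median of 26091234. The Hand2 transcript, from the gene the vector is named for, was detected at 1.02 to 26.3 CPM (counts relative to the library's scaled total) in the 7 Hand2 libraries with a median of 2.04, and at 0.0711 to 0.940 CPM in the 10 Empty Vector libraries with a median of 0.382. The groups did not overlap for this gene, although in edgeR's quasi-likelihood test its log2 fold change of 3.63 ± 0.57 (SE) had an adjusted p = 0.124. The 7 marker genes of muscle fibres summed to 68970 to 84910 CPM in each library, and 5 neuron markers to 3.63 to 12.7 CPM. The 3 Empty Vector females of 23 months, replicates 3, 4 and 5, stood apart in part. Their 7 immediate-early genes summed to 1483, 723 and 289 CPM, against 187 and 272.8 CPM in the Empty Vector females of 22 months, and 5 interferon genes summed to 190.7 CPM in replicate 5 and to 14.9 to 55.3 CPM in the other libraries. Values without these 3 animals stand beside the results that they moved. Those fits keep 2 Empty Vector females, both of 22 months, so they are less precise and hold no Empty Vector female of 23 months.

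All 8 genes passed the filter on low counts and were tested among 13965 genes. None differed between the Hand2 and Empty Vector animals at a 5% false discovery rate in edgeR, and 4 of the 8, Igfn1, Arpp21, Ampd3 and Ankrd1, were lower in males than in females. Between the vectors edgeR called 0 genes of the 13965, 0% of those tested, with 705 or 5.05% at an unadjusted p under 0.05, and DESeq2 called 1 gene, which was none of the 8, and limma-voom called 0. Between the sexes edgeR called 786 genes, 5.63% of those tested, of which 406 were higher and 380 lower in males (514 and 270 with upper-quartile scaling), and the genes lower in males were 2.72% of those tested. The median log2 fold change of the 8 genes was -0.32 between the vectors and -0.71 between the sexes, where the median of all tested genes was 0 in both. Dach2 is repressed in denervated muscle while other members rise, so these medians describe the set and do not measure a denervation response. Values below are CPM scaled by the trimmed mean of M values, and log2 fold changes come from edgeR with their SE. In whole muscle, fewer cells of a type and less RNA per cell cannot be told apart.

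**Figure D1:**
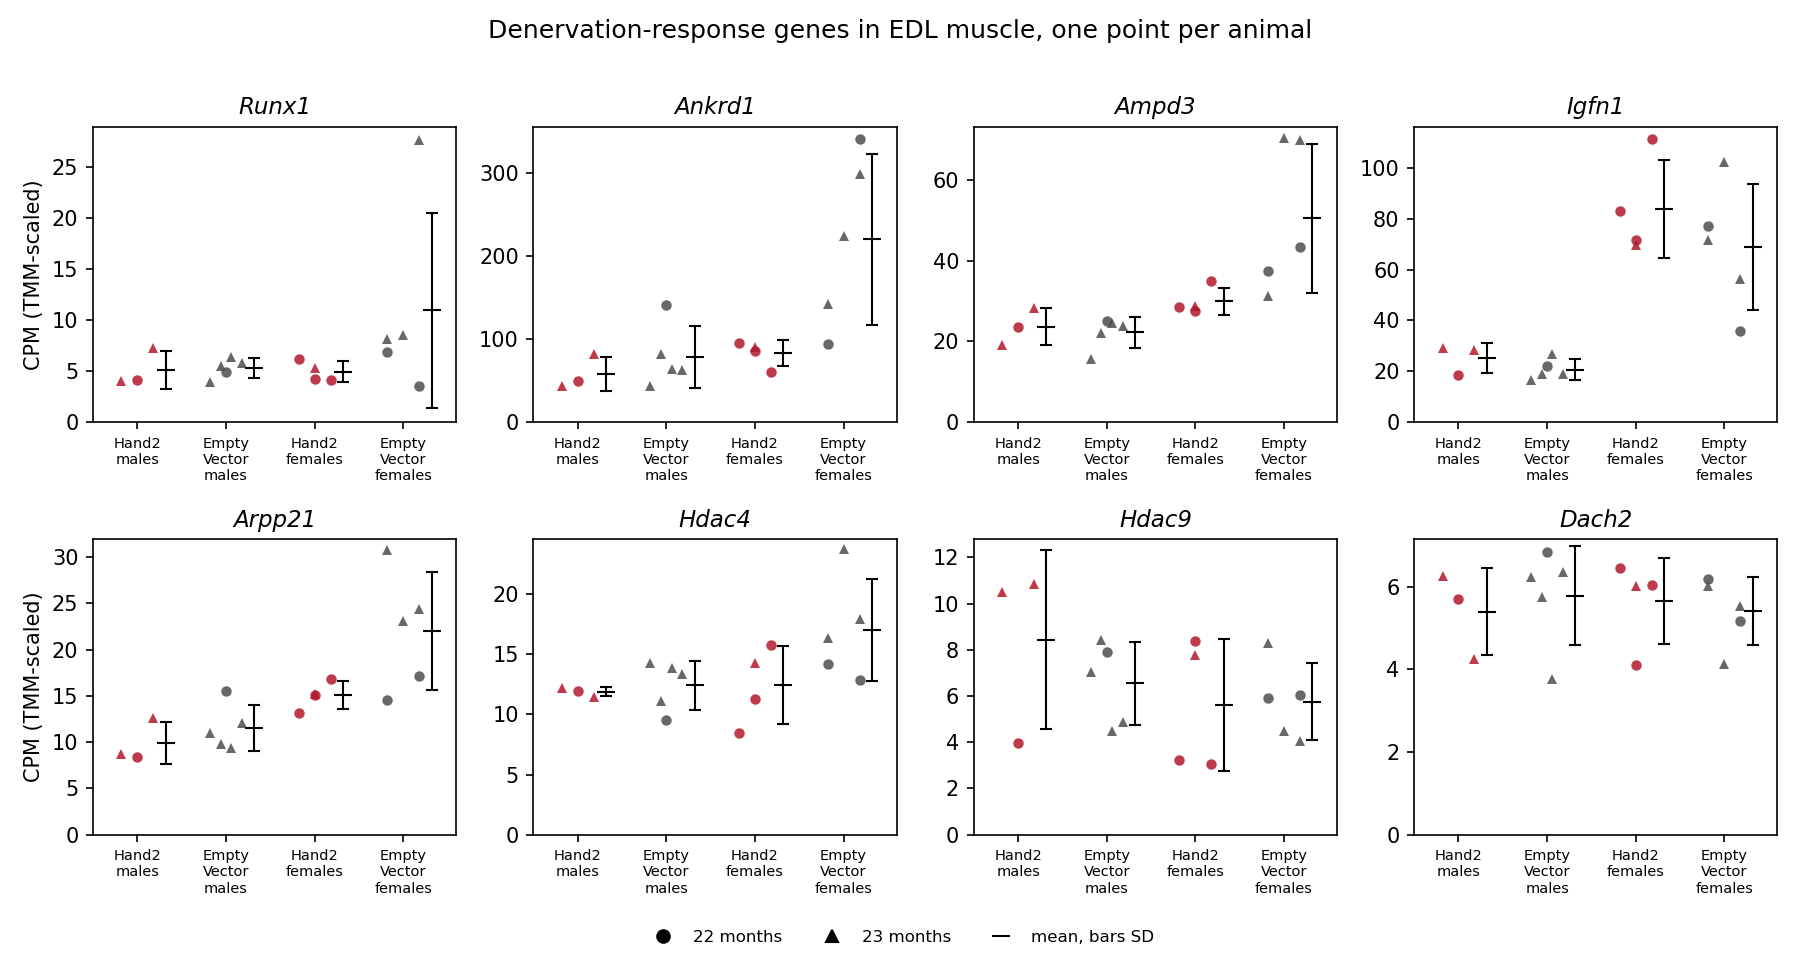
CPM of each of the 8 genes (y axes, linear, from 0) in Hand2 males, Empty Vector males, Hand2 females and Empty Vector females, with 1 point per animal, circles for 22 months, triangles for 23 months, and the mean and SD beside each group. Igfn1 lies at 16.5 to 29.0 CPM in the males and at 35.7 to 111.4 CPM in the females, and the widest spread of Runx1, Ankrd1 and Ampd3 is in the Empty Vector females.

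Runx1 (Entrez gene 12394, chromosome 16, 92601466 to 92826066, minus strand, mm10) encodes a DNA-binding transcription factor best known from blood formation, which in denervated mouse muscle limits wasting. It measured 6.18, 4.22, 4.09 and 5.35 CPM in the Hand2 females, against 6.83, 3.53, 8.18, 8.58 and 27.7 CPM in the Empty Vector females. In males it measured 4.09, 3.99 and 7.23 CPM with Hand2, against 3.93, 5.52, 6.42, 5.84 and 4.91 CPM with the Empty Vector. Empty Vector replicate 5 alone was far above the other 16 animals, and the groups overlapped in both sexes. Hand2 over Empty Vector gave a log2 fold change of -1.15 ± 0.44 in females and -0.07 ± 0.49 in males, and neither passed (edgeR adjusted p = 0.827 and 1). Without Empty Vector replicates 3, 4 and 5 the value in females was -0.08 ± 0.30. Between males and females it was -0.62 ± 0.34 with an edgeR adjusted p = 0.307, and 0.03 ± 0.19 without those 3 animals.

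Ankrd1 (Entrez gene 107765, chromosome 19, 36111965 to 36119844, minus strand, mm10) encodes an ankyrin-repeat protein that binds titin in the sarcomere and is induced by mechanical stress. The Hand2 females held 95.3, 86.1, 60.6 and 90.5 CPM, against 94.2, 340.2, 141.5, 224.3 and 299.0 CPM in the Empty Vector females. The Hand2 males held 49.6, 43.6 and 81.3 CPM, against 42.9, 81.6, 63.3, 62.4 and 140.6 CPM in the Empty Vector males. Among females 4 of the 5 Empty Vector animals lay above every Hand2 animal and the lowest lay within the Hand2 range, while the males of both vectors shared one range. Of the 8 genes Ankrd1 had the smallest unadjusted p between the vectors. Its log2 fold change was -0.95 ± 0.31 over all animals, -1.40 ± 0.40 in females and -0.43 ± 0.43 in males, and none passed (edgeR adjusted p = 0.921, 0.783 and 1). In females it was -1.39 ± 0.51 without Empty Vector replicates 3, 4 and 5.

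Ampd3 (Entrez gene 11717, chromosome 7, 110772604 to 110812408, plus strand, mm10) encodes the AMP deaminase isoform of red blood cells, an enzyme that converts AMP to IMP and whose transcript is induced in wasting muscle. It stood at 28.5, 27.5, 35.0 and 28.8 CPM in the Hand2 females, against 37.4, 43.5, 31.3, 70.5 and 70.0 CPM in the Empty Vector females. Male levels were 23.6, 19.02 and 28.2 CPM with Hand2, against 15.7, 22.0, 24.6, 23.9 and 25.2 CPM with the Empty Vector. In females 4 of the 5 Empty Vector animals again lay above the Hand2 range, and the male ranges overlapped. Fold changes on the log2 scale were -0.75 ± 0.23 in females and 0.08 ± 0.25 in males (edgeR adjusted p = 0.783 and 1), and -0.44 ± 0.18 in females without Empty Vector replicates 3, 4 and 5. The difference of these effects, male minus female, was 0.84 ± 0.33 with an unadjusted p = 0.023 and an edgeR adjusted p = 1, and edgeR called 0 genes for that difference, with 474 of 13965 or 3.39% at an unadjusted p under 0.05. Markers of red blood cells, whose isoform this is, summed over 3 measured genes to 204 to 870.8 CPM in Hand2 females, 383.3 to 1591 CPM in Empty Vector females, 329 to 1512 CPM in Hand2 males and 191.3 to 461.5 CPM in Empty Vector males, and their part in the Ampd3 values was not tested.

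Igfn1 (Entrez gene 226438, chromosome 1, 135953578 to 136006342, minus strand, mm10) encodes a protein of immunoglobulin-like and fibronectin type III domains at the Z-disc of skeletal muscle. Levels were 83.1, 71.6, 111.4 and 69.6 CPM in Hand2 females, against 77.3, 35.7, 71.8, 102.4 and 56.3 CPM in Empty Vector females. In males they were 18.5, 29.0 and 28.5 CPM with Hand2, against 16.5, 19.02, 26.9, 18.9 and 22.0 CPM with the Empty Vector. Every female lay above every male, and within each sex the vectors overlapped. Its log2 fold change between the vectors was 0.29 ± 0.25 in females and 0.29 ± 0.28 in males (edgeR adjusted p = 0.917 and 1), and 0.56 ± 0.31 in females without Empty Vector replicates 3, 4 and 5.

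Arpp21 (Entrez gene 74100, chromosome 9, 112065091 to 112234841, minus strand, mm10) encodes a cyclic AMP-regulated phosphoprotein first described in brain. It measured 13.2, 15.1, 16.9 and 15.2 CPM in Hand2 females, against 14.6, 17.1, 30.7, 23.1 and 24.4 CPM in Empty Vector females. Male values were 8.42, 8.77 and 12.6 CPM with Hand2, against 11.0, 9.77, 9.32, 12.0 and 15.6 CPM with the Empty Vector. The 3 highest values were those of the 3 Empty Vector females of 23 months, and the other 2 Empty Vector females lay within or just above the range of the Hand2 females. The log2 fold change between the vectors was -0.40 ± 0.15 over all animals, -0.54 ± 0.20 in females and -0.22 ± 0.22 in males (edgeR adjusted p = 0.921, 0.802 and 1). Without the 3 Empty Vector females of 23 months it was -0.07 ± 0.20 in females. The row of an opposite-strand transcript, 2900079G21Rik, overlaps Arpp21 with a mean of 0.785 CPM, and the use of strand in counting is not stated in the sources used here.

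Hdac4 (Entrez gene 208727, chromosome 1, 91932749 to 92148393, minus strand, mm10) encodes the deacetylase that accumulates in denervated fibres. It stood at 8.42, 11.3, 15.8 and 14.2 CPM in Hand2 females, against 14.2, 12.9, 16.4, 23.8 and 17.9 CPM in Empty Vector females. In males it stood at 12.0, 12.2 and 11.5 CPM with Hand2, against 14.3, 11.1, 13.9, 13.4 and 9.53 CPM with the Empty Vector. The groups overlapped in both sexes, with the highest animal, Empty Vector replicate 4, above the rest. On the log2 scale the change was -0.46 ± 0.19 in females and -0.06 ± 0.20 in males (edgeR adjusted p = 0.836 and 1), and -0.13 ± 0.21 in females without Empty Vector replicates 3, 4 and 5.

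Dach2 (Entrez gene 93837, chromosome X, 113298256 to 113836386, plus strand, mm10), the co-repressor that HDAC4 acts on, had the narrowest spread of the 8 genes, with a coefficient of variation of 17% over the 17 animals. It measured 6.45, 4.12, 6.03 and 6.03 CPM in Hand2 females, against 6.20, 5.16, 6.03, 4.14 and 5.54 CPM in Empty Vector females. Males held 5.70, 6.26 and 4.24 CPM with Hand2, against 6.23, 5.76, 3.76, 6.36 and 6.84 CPM with the Empty Vector. All 4 groups shared one range. Its log2 fold change between the vectors was -0.01 ± 0.13 with a 95% interval from -0.29 to 0.27 and an edgeR adjusted p = 0.995, and between males and females it was 0.03 ± 0.13 with an interval from -0.24 to 0.31 and an edgeR adjusted p = 0.919.

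Hdac9 (Entrez gene 79221, chromosome 12, 34371497 to 34528889, minus strand, mm10) encodes a class IIa relative of HDAC4 that in mouse muscle takes part in the activity-dependent repression of synaptic genes. Hand2 females held 3.22, 8.38, 3.05 and 7.78 CPM, against 5.90, 6.05, 8.31, 4.49 and 4.05 CPM in Empty Vector females. Hand2 males held 3.97, 10.5 and 10.8 CPM, against 7.03, 8.43, 4.50, 4.86 and 7.92 CPM in Empty Vector males. Within each sex the Hand2 values ran from below the lowest to above the highest Empty Vector value. The Hand2 animals of 22 months held 3.22, 8.38 and 3.05 CPM as females and 3.97 CPM as a male, and those of 23 months held 7.78 CPM as a female and 10.5 and 10.8 CPM as males. Over both sexes the log2 fold change between the vectors was -0.50 ± 0.39 in animals of 22 months and 0.67 ± 0.25 in those of 23 months (edgeR adjusted p = 0.59 and 0.559), and the difference between the ages was not tested. Its log2 fold change was -0.05 ± 0.36 in females and 0.35 ± 0.38 in males (edgeR adjusted p = 0.988 and 1), with intervals from -0.81 to 0.71 and from -0.46 to 1.17.

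**Figure D2:**
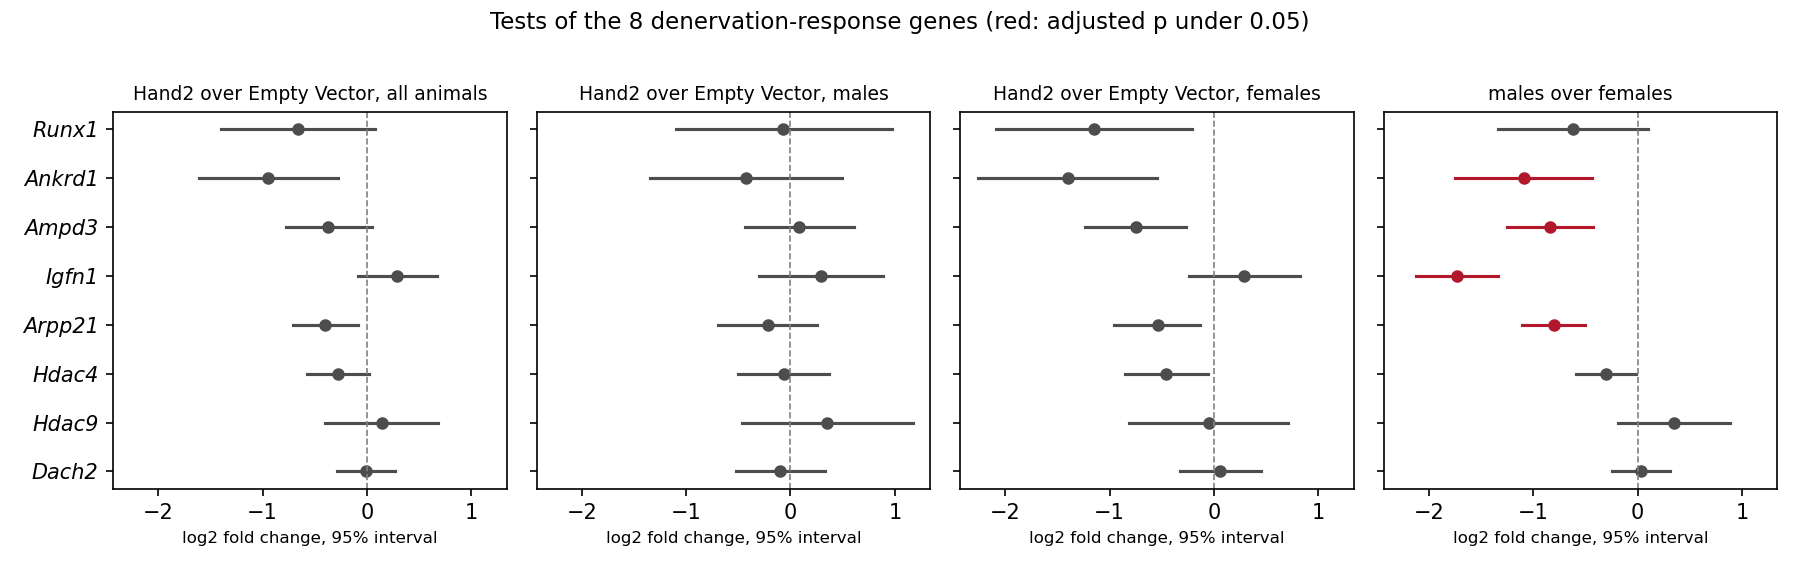
Log2 fold changes with 95% intervals (x axes) of the 8 genes for Hand2 over Empty Vector in all animals, in males and in females, and for males over females, with red where the edgeR adjusted p is under 0.05. In females the intervals of Runx1, Ankrd1, Ampd3, Arpp21 and Hdac4 lie below 0 without passing the adjustment, and between the sexes 4 genes pass.

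Read as a group, 6 of the 8 genes had an estimate below 0 in Hand2 over Empty Vector females, with a median of -0.50, and 5 of the 8 were below 0 in males, with a median of -0.07. Among all tested genes 51.6% were below 0 in females and 51.1% in males, and the medians were 0. The 8 genes have no common expected direction, since Dach2 is repressed in denervated muscle, so these counts and medians only describe the set. An unadjusted p under 0.05 on the lower side was found for 5 of the 8 genes in females, Ankrd1, Ampd3, Arpp21, Runx1 and Hdac4, where 3.15% of all tested genes had one, and for 0 of the 8 in males, where 1.39% had one. Within females edgeR called 0 of 13965 genes with 824 at an unadjusted p under 0.05, and within males 0 with 397. DESeq2 called 7 genes within females and 1 within males, none of them among the 8, and limma-voom called 0 in each. The 8 genes were chosen with these data known, so the count of 5 is a description and not a test of the group. Without the 3 Empty Vector females of 23 months, Ankrd1 and Ampd3 were the 2 genes of the 8 with an unadjusted p under 0.05 in females, at 0.02 and 0.0249. Both were on the lower side, where 3.86% of all genes tested in that fit had one. No member's vectors were without overlap within either sex, where 1.65% of tested genes in females and 2.63% in males were.

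The comparison of males with females, with the vector taken into account, gave the 4 calls among the 8 genes. Igfn1 ranged from 16.5 to 29.0 CPM with a median of 20.5 in the 8 males, against 35.7 to 111.4 CPM with a median of 71.8 in the 9 females. The sexes did not overlap, which held for 0.351% of tested genes on the lower side. The log2 fold change of males over females was -1.73 ± 0.18, a ratio of 0.301, with an edgeR adjusted p = 3.05e-05. It was -1.73 ± 0.22 among Hand2 animals alone (edgeR adjusted p = 0.0232) and -1.74 ± 0.26 among Empty Vector animals alone (edgeR adjusted p = 0.0122), and the difference of the vector effect between the sexes was 0.00 ± 0.37. Without Empty Vector replicates 3, 4 and 5 the value between the sexes was -1.61 ± 0.20 (edgeR adjusted p = 0.000731). Among animals of 22 months, with 2 males, it was -1.81 ± 0.43 and did not pass (edgeR adjusted p = 0.562), and among animals of 23 months it was -1.75 ± 0.20 (edgeR adjusted p = 0.00373).

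Arpp21 ranged from 8.42 to 15.6 CPM with a median of 10.4 in males, against 13.2 to 30.7 CPM with a median of 16.9 in females. The ranges met only between 13.2 and 15.6 CPM, and among Hand2 animals they did not overlap, as for 5.81% of tested genes on the lower side. The log2 fold change was -0.80 ± 0.15 with an edgeR adjusted p = 0.00334, and it was -0.61 ± 0.16 among Hand2 animals and -0.93 ± 0.21 among Empty Vector animals, neither of which passed alone (edgeR adjusted p = 0.2 and 0.0691). Among animals of 22 months it was -0.43 ± 0.20 (edgeR adjusted p = 0.919) and among those of 23 months -1.11 ± 0.16 (edgeR adjusted p = 0.00492). Without Empty Vector replicates 3, 4 and 5 it was -0.54 ± 0.13 and still passed (edgeR adjusted p = 0.0415).

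Ampd3 lay between 15.7 and 28.2 CPM with a median of 23.8 in males, against 27.5 and 70.5 CPM with a median of 35.0 in females. A single male, Hand2 replicate 7, reached into the female range, and among Empty Vector animals the sexes did not overlap, as for 1.74% of tested genes on the lower side. Males over females gave -0.84 ± 0.19 with an edgeR adjusted p = 0.0192, and -0.59 ± 0.13 (edgeR adjusted p = 0.0297) without Empty Vector replicates 3, 4 and 5. It was -0.34 ± 0.14 among Hand2 animals and -1.18 ± 0.24 among Empty Vector animals (edgeR adjusted p = 0.393 and 0.0625), so neither passed alone. Among animals of 22 and 23 months it was -0.51 ± 0.13 and -1.13 ± 0.31, which did not pass either (edgeR adjusted p = 0.411 and 0.101).

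Ankrd1 held 42.9 to 140.6 CPM with a median of 62.9 in males, against 60.6 to 340.2 CPM with a median of 95.3 in females, and the ranges overlapped widely. Its log2 fold change of -1.09 ± 0.31 had an edgeR adjusted p = 0.0499, just inside the threshold, and the call was lost in 25 of 31 alternatives, and it held in 3 of the 17 fits that left out 1 animal. It was -0.97 ± 0.35 without Empty Vector replicates 3, 4 and 5 (edgeR adjusted p = 0.195). Hdac4 did not pass, at -0.30 ± 0.14 with an unadjusted p = 0.0462 and an edgeR adjusted p = 0.222, and was -0.09 ± 0.13 without those 3 animals. Hdac9 was at 0.35 ± 0.25 (edgeR adjusted p = 0.45). Its values were 3.97 to 10.8 CPM with a median of 7.48 in males, against 3.05 to 8.38 CPM with a median of 5.90 in females.

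Markers of slow fibres moved with sex in the same libraries. All 6 were lower in males, from -2.21 ± 0.32 for Tnnt1 to -3.79 ± 0.75 for Myh7, the slow myosin heavy chain, with edgeR adjusted p-values from 0.000428 to 0.0092. Their summed level was 68.7 to 223.3 CPM with a median of 85.2 in males, against 197.7 to 1147 CPM with a median of 747.6 in females. The sexes overlapped in this sum only through Hand2 male replicate 6, at 223.3 CPM, and Hand2 female replicate 2, at 197.7 CPM. The part of fibre type in the 4 differences was not tested. The pericyte marker Pdgfrb was 0.20 ± 0.05 higher in males on the log2 scale (edgeR adjusted p = 0.0358), and no other marker gene of the lists passed. All 6 slow fibre markers also passed without Empty Vector replicates 3, 4 and 5, and 0 of the 3 measured markers of pericytes and smooth muscle did. Acta2, a defining marker of smooth muscle, was at 0 in every library, although Myh11, Rgs5 and Pdgfrb of the same list were measured. Whether this 0 is absent RNA or a row left unfilled in counting cannot be told from these data.

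The promoters of Igfn1, Ankrd1 and Ampd3 are shown because these genes were called together between the sexes and have a RefSeq start at the start of their row in the count table. Ampd3 has 3 promoter windows in this set, and Igfn1 and Ankrd1 have 1 each. The Ampd3 window nearest the start of its row is shown, and which of the 3 these muscles use is not known from these data. The closest RefSeq start of Arpp21 lies 1119 bases from that of its row, so its promoter is not shown. Each sequence covers 250 bases before the start to 50 after it, 5′ to 3′ on the gene's strand, in RefSeq's GRCm38.p6 assembly. Capitals mark E-boxes (CANNTG, searched on both strands, which read alike). This loose pattern includes sites of myogenin and of other factors, and not every match is a myogenin site. The Igfn1 window lies at chr1:136006293-136006592 on the minus strand, the Ankrd1 window at chr19:36119795-36120094 on the minus strand and the Ampd3 window at chr7:110772354-110772653 on the plus strand.
Igfn1: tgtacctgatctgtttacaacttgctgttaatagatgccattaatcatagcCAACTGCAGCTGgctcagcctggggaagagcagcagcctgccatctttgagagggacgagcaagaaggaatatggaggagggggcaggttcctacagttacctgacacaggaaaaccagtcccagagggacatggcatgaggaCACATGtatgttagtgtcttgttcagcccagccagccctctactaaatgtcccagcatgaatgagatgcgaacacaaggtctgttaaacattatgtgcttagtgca
Ankrd1: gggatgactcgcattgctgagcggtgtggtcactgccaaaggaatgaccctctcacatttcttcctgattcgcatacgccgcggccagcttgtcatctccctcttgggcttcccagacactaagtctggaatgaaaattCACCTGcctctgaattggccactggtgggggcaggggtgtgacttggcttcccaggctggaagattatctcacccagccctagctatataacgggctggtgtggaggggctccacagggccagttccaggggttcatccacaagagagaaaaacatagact
Ampd3: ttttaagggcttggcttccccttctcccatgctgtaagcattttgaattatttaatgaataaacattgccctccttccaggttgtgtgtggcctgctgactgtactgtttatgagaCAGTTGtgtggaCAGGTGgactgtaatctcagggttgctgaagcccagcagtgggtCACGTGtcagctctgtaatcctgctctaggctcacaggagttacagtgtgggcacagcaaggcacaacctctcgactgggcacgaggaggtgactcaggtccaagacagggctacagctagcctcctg
The Igfn1 window holds 3 E-boxes, and the pair at -199 and -193 from the start stand end to end, the second of them CAGCTG. The Ampd3 window holds 3, at -134, -122 and -78, and the Ankrd1 window 1, at -111. Any E-box is found in 72.3% of the 32851 mouse promoter windows of this table, and CAGCTG in 16.3%. These matches are descriptions of the letters and say nothing of binding in these muscles.

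Genes around the 8 members were read from 4 lists. Of 24 other denervation-induced genes, all measured, 0 passed between the vectors in edgeR, with 21 estimates below 0 and a median of -0.22, and within females 23 were below 0 with a median of -0.43. Within males 13 of the 24 were below 0 with a median of -0.02. Of all tested genes 51.7% were below 0 over all animals, 51.6% within females and 51.1% within males. The list was chosen with earlier results of these data known, and its genes were read in the same animals. Its counts are therefore a description and not a test. With Empty Vector replicates 3, 4 and 5 left out, 18 of the 24 were below 0 within females with a median of -0.27, where 49.7% of tested genes were. In the full comparison within females the medians of some marker lists were below 0 as well, at -1.25 for immediate-early genes, with 6 of 7 below 0, at -1.07 for interferon genes, with 5 of 5, and at -0.98 for red blood cell genes, with 3 of 3 measured. Without those 3 animals these medians were 0.29, -0.01 and 0.11, and that of Schwann cell genes went from -0.22 to 0.08. Other lists stayed below 0. Slow fibre genes went from -0.26 to -0.67, with 6 of 6 below 0 in both fits. Endothelial genes went from -0.14 to -0.31, with 4 of 4 below 0 in both, and the 2 measured neuron genes from -0.64 to -0.51. The part of these cells and states in the values of the 24 genes was not tested. Between the sexes 5 of the 24 were lower in males and 0 higher, where 2.72% of all tested genes were lower and 2.91% higher. They were Cdkn1a, a cell cycle inhibitor (-1.39 ± 0.30), Myog (-1.45 ± 0.37), the stress gene Gadd45a (-1.0 ± 0.23), Trim63, the atrophy ubiquitin ligase (-0.94 ± 0.22) and Myh3, embryonic myosin (-0.63 ± 0.14), with edgeR adjusted p-values from 0.0125 to 0.0323. The 5 values without Empty Vector replicates 3, 4 and 5 lay between -1.13 and -0.60 and 0 of them passed, with edgeR adjusted p-values from 0.0578 to 0.187.

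Myog, the gene at the end of the HDAC4 and DACH2 pathway, measured 3.597, 4.75, 3.11 and 7.58 CPM in Hand2 females, against 5.49, 11.9, 24.7, 21.5 and 16.9 CPM in Empty Vector females. The 4 highest animals of the series were Empty Vector females, and the remaining one lay within the Hand2 range. Males held 3.46, 1.90 and 5.66 CPM with Hand2, against 4.46, 3.09, 4.15, 2.62 and 4.00 CPM with the Empty Vector, and their ranges overlapped. Hand2 over Empty Vector gave -1.77 ± 0.40 on the log2 scale in females (edgeR adjusted p = 0.783) and -0.01 ± 0.45 in males (edgeR adjusted p = 1). Without Empty Vector replicates 3, 4 and 5 the value in females was -0.88 ± 0.41 (edgeR adjusted p = 0.728), and between males and females Myog was then at -0.79 ± 0.29 (edgeR adjusted p = 0.187). Among the Empty Vector females, replicate 3 with the highest Myog had 6.03 CPM of Dach2, replicate 4 with the next highest had the lowest Dach2 of the 5 at 4.14 CPM, and replicate 1 with the lowest Myog had the highest Dach2 at 6.20 CPM.

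Of 18 genes of the deacetylase pathway, MEF2 factors and their partners, 0 passed between the vectors in edgeR, with a median of -0.06. Between the sexes Hdac3, the catalytic deacetylase that class IIa enzymes recruit, was higher in males (0.16 ± 0.04, edgeR adjusted p = 0.0284). Sik1, a kinase that keeps class IIa deacetylases out of the nucleus, was lower in males (-2.01 ± 0.55, edgeR adjusted p = 0.0466), as was Myog. Sik1 ranged from 13.7 to 27.6 CPM with a median of 18.6 in males, against 22.8 to 342.3 CPM with a median of 39.5 in females. Neither passed without Empty Vector replicates 3, 4 and 5, at 0.14 ± 0.05 for Hdac3 (edgeR adjusted p = 0.17) and -0.72 ± 0.19 for Sik1 (edgeR adjusted p = 0.065). Of 6 genes of the acetylcholine receptor and its organising kinase MuSK, 0 passed in either comparison, and the 3 with the smallest p between the vectors were Chrna1 (-0.15 ± 0.12), Chrnb1 (-0.09 ± 0.07) and Chrne, the adult subunit (0.10 ± 0.09). Among 11 family relatives and partners of the members, Ky alone passed between the sexes. Its product is a binding partner of IGFN1, and it was higher in males by 0.84 ± 0.23 on the log2 scale (edgeR adjusted p = 0.0474), opposite in sign to Igfn1. Ky measured 197.6 to 501.6 CPM with a median of 406.1 in males, against 106.2 to 361.1 CPM with a median of 212.6 in females, and it did not pass without those 3 animals, at 0.71 ± 0.29 (edgeR adjusted p = 0.254).

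**Figure D3:**
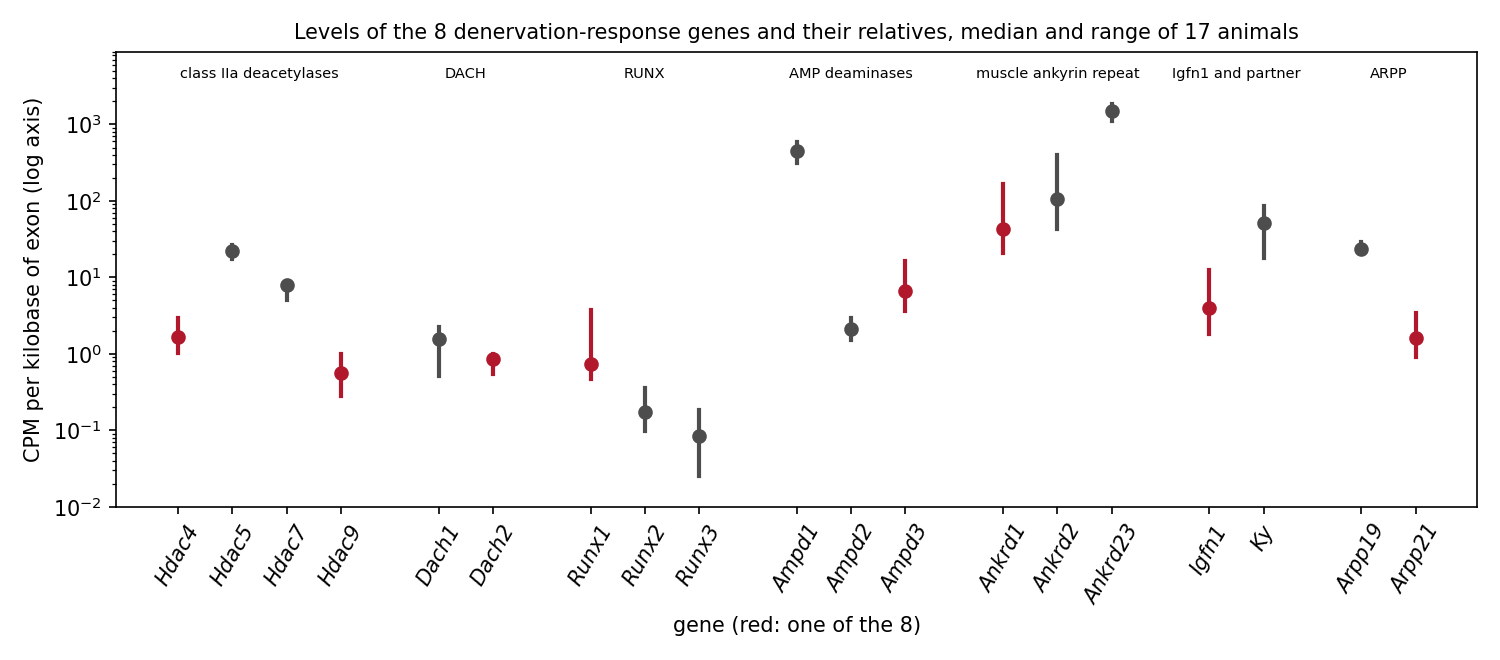
Levels per length, in CPM per kilobase of exon (y axis, logarithmic), of the 8 genes in red, with their family relatives and Ky, a partner of Igfn1, in grey. Points are the median and lines the lowest to highest value of 17 animals. Ankrd1 stands highest of the 8 and Hdac9 lowest, and Ampd1, Hdac5 and Ankrd23 exceed the members of their families.

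CPM per kilobase of exon makes levels of different genes roughly comparable. The lengths join all GENCODE exons of a gene, whether or not muscle uses them, and may differ from the gene model of the counts. On this approximate scale Ankrd1 stood first at 58.2 ± 43.8 (SD, n = 17). It was followed by Ampd3 at 7.60 ± 3.65 and Igfn1 at 5.62 ± 3.54, which lay within each other's SD over both sexes. Ampd3 averaged 9.65 and Igfn1 8.4 in females, and they averaged 5.31 and 2.49 in males. Hdac4 at 1.69 ± 0.437 and Arpp21 at 1.67 ± 0.666 were alike, and Runx1 at 0.920 ± 0.749, Dach2 at 0.805 ± 0.137 and Hdac9 at 0.601 ± 0.228 lay within the spread of their neighbours. Relatives were set beside them by family, whatever their values. Hdac5 averaged 22.0 ± 2.11 and Hdac7 7.53 ± 1.12 CPM per kilobase, above both Hdac4 and Hdac9. Ampd1, the muscle isoform of AMP deaminase, averaged 456 ± 86.0 and Ampd2 2.17 ± 0.444, on either side of Ampd3. Ankrd23 averaged 1450 ± 216, and Ankrd2, raised in stretched muscle, 121 ± 85.5, both above Ankrd1. Runx1 exceeded Runx2 at 0.188 ± 0.0641 and Runx3 at 0.0879 ± 0.0462, and Dach1 at 1.5 ± 0.488 exceeded Dach2.

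**Figure D4:**
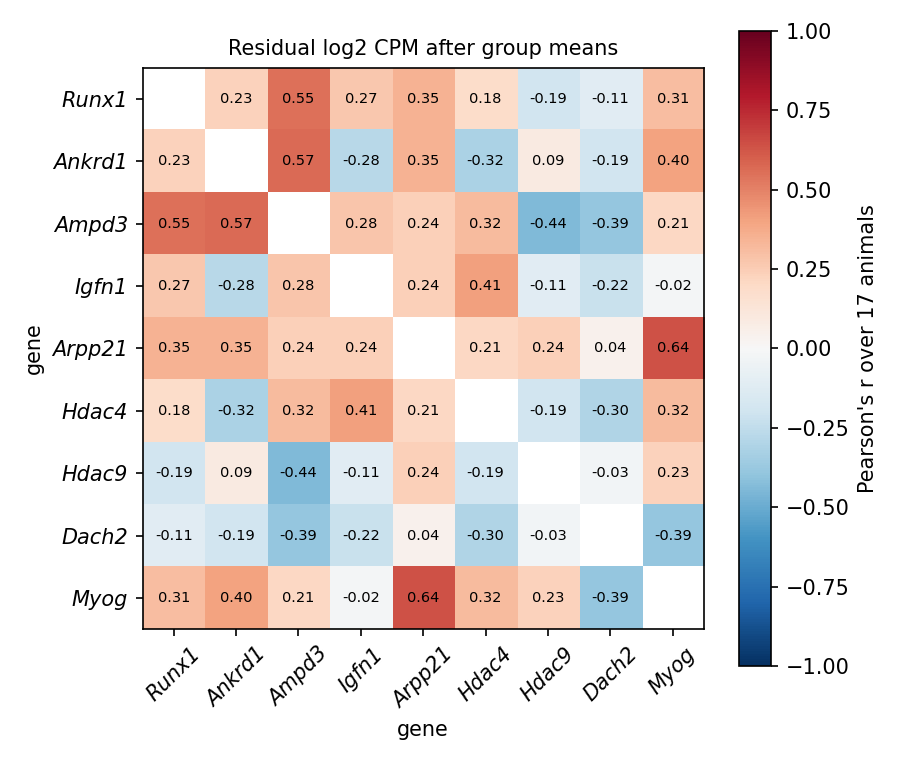
Pearson's r between each pair of the 8 genes, and between each and Myog, over 17 animals in log2 CPM after the means of the 4 groups of vector and sex were taken out, with colour from -1 (blue) to 1 (red). The highest values are 0.64 for Arpp21 with Myog, 0.57 for Ankrd1 with Ampd3 and 0.55 for Runx1 with Ampd3.

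Whether the 8 genes vary together from animal to animal was read from log2 CPM after the means of the 4 groups of vector and sex had been taken out. Of 28 pairs 0 passed at an adjusted p under 0.05 by a 2-sided permutation test. The p-values of that test are too small, because the means taken out were not allowed for. The strongest pair was Ankrd1 with Ampd3 at Pearson's r = 0.57 (permutation p = 0.0152, adjusted p = 0.307) and Spearman's rho = 0.53 (permutation p = 0.0294, adjusted p = 0.412). The r was 0.48 within females, 0.76 within males and 0.51 without the 2 animals whose Ankrd1 residuals lay farthest from the median. Runx1 with Ampd3 followed at r = 0.55 (permutation p = 0.022, adjusted p = 0.307) and rho = 0.59 (permutation p = 0.0159, adjusted p = 0.412). Hdac4 with Dach2, the regulator and its target, had r = -0.30 (permutation p = 0.247, adjusted p = 0.593) and rho = -0.26 (permutation p = 0.319, adjusted p = 0.615).

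The relation of each gene to Myog was added after the data had been seen, as 8 relations adjusted together. Arpp21 had r = 0.64 with Myog (permutation p = 0.00537, adjusted p = 0.043) and rho = 0.54 (permutation p = 0.0283, adjusted p = 0.226). The permutations made no allowance for the 4 group means taken out, which makes these p-values too small. The adjusted p = 0.043 is therefore not counted as a pass. The r was 0.77 within females, 0.42 within males and 0.49 within Hand2 animals, and 0.47 to 0.72 when 1 animal was left out. It fell to 0.39 without the 2 animals whose Arpp21 residuals lay farthest from the median. Without Empty Vector replicates 3, 4 and 5 it was 0.36. Dach2 with Myog had r = -0.39 (permutation p = 0.121, adjusted p = 0.324) and rho = -0.37 (permutation p = 0.151, adjusted p = 0.303), and Hdac4 with Myog r = 0.32 (permutation p = 0.213, adjusted p = 0.355) and rho = 0.31 (permutation p = 0.226, adjusted p = 0.362).

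Over the same residual values of 17 animals, the gene most like each member was sought among 12154 genes of at least 1 CPM on average. These are the highest of many values and are given as a description. For Runx1 they were Rap1gap2 (r = 0.91), Card14 (r = 0.89) and Trit1 (r = 0.88), and the high Runx1 value of Empty Vector replicate 5 enters each. For Ankrd1 they were Efha1 (r = 0.90), Lipt1 (r = 0.88) and Apoa1bp (r = 0.87), and for Ampd3 Gm3002 (r = 0.85), Acsl6 (r = 0.83) and BC005561 (r = 0.82). For Igfn1 they were Ift52 (r = 0.84), Kif1a (r = 0.82) and Eif4e3 (r = 0.82), and for Arpp21 Cttnbp2nl (r = 0.76), Fosl2 (r = 0.76) and Eif6 (r = 0.75). Hdac4 was nearest to Gpc1 (r = 0.89), Atxn1l (r = 0.87) and Map2k4 (r = 0.85), Hdac9 to Zfp930 (r = 0.95), Smad6 (r = 0.86) and Ube2h (r = 0.86), and Dach2 to 1810030O07Rik (r = 0.86), 1110037F02Rik (r = 0.84) and Arl6ip4 (r = 0.82). No gene of the 8 was among the 3 nearest of another.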

How the data were processed

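RNA was sequenced from the EDL muscle of 17 mice with a TruSeq v2 kit, per the labels' protocols, and mm10 is the build named in the submitters' processing notes. The sources used here do not state the aligner, the counter or any use of strand. The authors deposited estimated counts per gene, not scaled for depth, and normalized log2 values. Animals were grouped by vector and sex as labelled. Estimated counts were rounded, filtered by edgeR's filterByExpr (13965 of 36172 rows kept), scaled by TMM and tested over all genes by robust quasi-likelihood F tests in edgeR 4.0.16 under R 4.3.3, with Benjamini-Hochberg adjustment at 5%. One model with vector and sex terms gave both main comparisons, and a model of 4 groups of vector and sex gave the rest. SE is the size of the log2 fold change divided by the square root of F. Pairs used log2 CPM (prior count 2) and 100000 permutations over all 17 animals, which made no allowance for the 4 group means taken out. Levels per length used the joined length of all GENCODE exons of each gene. Alternatives included DESeq2 1.42.0, limma 3.58.1, a surrogate variable from sva 3.50.0, other scalings and filters, age, single strata and leaving out each animal. The procedure was tested on simulated data. Precision is limited by 3 to 5 animals per group of vector and sex, and p-values measure the spread between these animals. Fits without Empty Vector replicates 3, 4 and 5 keep 2 Empty Vector females. The 8 genes and all lists were chosen with earlier results of these data known. Named from the lists were genes past 5% over all genes, or up to 3 by smallest p between the vectors, and for each of the 8 genes the 3 most like it. Promoter sequences are RefSeq's.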

Additional observations from a re-analysis of the deposited data

Results flagged for a closer look

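Runx1 stood at 27.7 CPM in Empty Vector replicate 5, a female of 23 months, where the next Empty Vector animal had 8.58 CPM. That animal lay far from the others both among all Empty Vector animals and among the Empty Vector females. The same library held the highest sum of interferon genes, 190.7 CPM, and its part in the Runx1 value was not tested. Ampd3 stood at 35.0 CPM in Hand2 replicate 3, where the next of the 4 Hand2 females had 28.8 CPM. That gap was 0.831 of the range, just past the critical value of 0.829. In all, 40 combinations of a gene and a group of animals were looked at, with some groups nested in others. They gave 3 flags, and the Runx1 value was flagged in both groups that hold it. Chance alone flags about 1 combination in 20.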

How the results depend on the processing

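Igfn1, Arpp21 and Ampd3 were called lower in males in all 17 fits that left out 1 animal, and the call of Ankrd1 held in 3 of them. The log2 fold changes of males over females over all settings ran from -1.82 to -1.52 for Igfn1, -1.11 to -0.43 for Arpp21, -1.18 to -0.34 for Ampd3 and -1.5 to -0.51 for Ankrd1. With 1 surrogate variable Igfn1 alone of the 4 was called. Counts of called genes differed between settings. DESeq2 called 1 gene between the vectors, 7 within females, 1 within males and 1271 between the sexes. Between the sexes 288 genes were called with 1 surrogate variable, 24 and 413 in animals of 22 and 23 months, 291 without Empty Vector replicates 3, 4 and 5, 68 in Hand2 animals alone and 118 in Empty Vector animals alone. The single ages and single vectors for the sexes were chosen after seeing the data and use fewer animals; the cause of the other differences was not tested. Leaving out 1 animal gave 0 to 1 called genes between the vectors (1 without Hand2 replicate 6), 0 to 1 within females (1 without Hand2 replicate 3 or 5), 0 to 2 within males (2 without Hand2 replicate 6), 0 to 0 for their difference and 476 to 952 between the sexes. With no group means taken out 7 pairs passed. No called member changed direction under any setting run. Among estimates that were not called, signs turned in several settings. With limma-voom Hdac9 was -0.10 and Dach2 0.01 between the vectors, and Dach2 was -0.01 in females, 0.01 in males and 0.02 for their difference. With an age term Hdac9 was 0.02 in females. With 1 surrogate variable Hdac9 was -0.04 and Dach2 -0.02 between the sexes. Between the vectors Hdac9 was -0.50 at 22 months and 0.67 at 23 months, and Dach2 0.03 at 23 months. Without Empty Vector replicates 3, 4 and 5 Dach2 was -0.01 in females and -0.03 between the sexes, Runx1 0.03 between the sexes and Arpp21 -0.15 for the difference of the vector effect. That difference was 0.00 for Igfn1, -0.27 without those 3 animals, -0.07 with an age term and -0.18 to 0.19 leaving out 1 animal. In Hand2 animals alone Runx1 was 0.04 and Dach2 -0.06 between the sexes. Leaving out 1 animal gave Dach2 -0.06 to 0.05 between the vectors, -0.02 to 0.19 in females, -0.22 to 0.05 in males and -0.02 to 0.10 between the sexes, Hdac9 -0.32 to 0.16 in females, and Ampd3 -0.06 to 0.22 and Runx1 -0.40 to 0.08 in males. No paired analysis was possible because replicate numbers were given in accession order and link no animals across groups.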
